A study of Mus musculus with 20 samples.

Results

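The interleukin family was taken as all protein-coding genes whose symbol begins with Il and a digit, which gave 82 of the 47069 genes in the count table. They comprise 37 ligands, 40 receptor chains, 4 antagonists or soluble binding proteins (Il1rn, Il1f5, Il18bp and Il22ra2) and Il4i1, an enzyme first found as an interleukin-4-induced gene. Of the 82 genes, 52 carried enough counts to be tested, namely 16 ligands, 32 receptor chains, 3 antagonists or binding proteins and Il4i1. RNA of whole kidneys was sequenced from 20 male mice of a 129SJ x C57Bl/6J background that were killed at 15 weeks of age. The 5 WT mice carried an intact Col4a3 gene and were left untreated. The other groups were all Col4a3-/-, that is, they lacked the alpha3 chain of type IV collagen in every cell and develop the kidney disease of Alport syndrome. From 5 weeks of age, 6 Veh mice received PBS under the skin once a week, 6 anti-miR-21 mice were given, by the same route and schedule, 50 mg/kg of Lademirsen, a chemically modified antisense oligonucleotide that binds miR-21, and 3 ACEi mice received ramipril, an inhibitor of the angiotensin-converting enzyme, at 11 mg/L in the drinking water. The methods of the study add PBS injections for the ACEi mice, so that genotype and injection cannot be told apart in comparisons with WT. Every Col4a3-/- group carries the same deletion, and each library is 1 mouse.

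Interleukins are secreted proteins by which leukocytes, fibroblasts and epithelial cells signal to each other. Ligands of the interleukin-1 family bind receptors that signal through MyD88 and NF-kB, most other interleukins bind receptors that signal through JAK kinases and STAT factors, and interleukin-17 has a receptor family of its own. Most ligands need at least a pair of receptor chains, some of which are shared by several ligands, and decoy receptors and antagonists hold the signal back. In the kidney, tubule cells and resident macrophages make some interleukins at rest, and infiltrating leukocytes and activated fibroblasts add others in chronic injury.

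Because one treatment targets miR-21, its mature form is shown first, with the seed (bases 2 to 8) that pairs with target RNAs in capitals. It is 22 bases long and lies at chr11:86584120-86584141 on the minus strand (RefSeq, GRCm38.p6).
mmu-miR-21a-5p: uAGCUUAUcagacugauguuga
The DNA complement of this seed, ATAAGCT, occurred in an annotated 3' untranslated region (GENCODE, GRCm38) of 10 of the 81 interleukin family genes that have one (12.3%), against 1570 of 20737 protein-coding genes (7.57%). The longest annotated region had a median of 737 bases in the family and 965 bases over all these genes. Among tested genes the match occurred in 6 of 52 family genes (11.5%), against 1237 of 15234 protein-coding genes (8.12%). Their median lengths were 1084 and 1129 bases. For the 6 genes with a match that were also tested, the match is shown in capitals with its flanking bases.
Il33: ctacatttttATAAGCTtaaaa
Il6: ctcctaacagATAAGCTggagt
Il2ra: acctagaagtATAAGCTaaaat
Il6ra: ttgactttttATAAGCTaagtc
Il6st: agtagaatcaATAAGCTgcaaa
Il17d: ggacagctacATAAGCTttaaa
These matches are letters in the sequence and were not tested as sites of binding.

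Promoters were searched as well, since many interleukin family genes moved together between WT and Veh kidneys. RefSeq promoters, from 250 bases before to 50 bases after a transcription start, were at hand for 65 of the 82 genes (80 promoters). The letters GGAANTTCC, 1 form of the NF-kB motif, stood in 5 of these 80 promoters (6.25%) and in 305 of all 32851 promoters (0.928%). GGGANTTCC, the other NF-kB form searched, stood in 1 of the 80 (1.25%, against 1.68% of all). TGANTCA, the AP-1 motif, stood in 14 (17.5%, against 7.81%), and TTCNNNGAA, a STAT motif, in 10 (12.5%, against 8.30%). Both strands were read, and a STAT match can share letters with an NF-kB match, as it does in the Il1r2 promoter. Of the 5 genes with GGAANTTCC, 4 are neighbouring receptor genes on chromosome 1, and the other is Il16. They are shown with the motif in capitals, on the strand of the gene.
Il1r2, chr1:40085957-40086025: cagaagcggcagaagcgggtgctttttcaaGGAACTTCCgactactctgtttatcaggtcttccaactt
Il1rl2, chr1:40324443-40324511: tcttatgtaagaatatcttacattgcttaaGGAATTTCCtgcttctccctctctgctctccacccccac
Il1rl1, chr1:40439626-40439654: ggtaagtttaGGAATTTCCagtaagtgag
Il18rap, chr1:40515313-40515361: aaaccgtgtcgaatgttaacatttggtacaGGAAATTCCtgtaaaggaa
Il16, chr7:83655505-83655573: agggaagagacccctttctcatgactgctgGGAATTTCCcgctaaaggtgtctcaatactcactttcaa
Of the 14 genes with the AP-1 letters, 9 were tested, and 6 of these were higher and 3 lower in Veh than in WT kidneys. Of all tested genes 39.0% were higher and 34.0% lower, and 75% of the tested ligands and 78.1% of the tested receptor chains were higher. The 4 that rose most are shown, 3 ligands and an antagonist.
Il11, chr7:4778203-4778269: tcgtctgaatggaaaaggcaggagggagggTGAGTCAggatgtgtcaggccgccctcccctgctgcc
Il6, chr5:30012864-30012901: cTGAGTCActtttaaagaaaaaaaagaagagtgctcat
Il1a, chr2:129309973-129310014: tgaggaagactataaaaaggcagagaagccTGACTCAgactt
Il1rn, chr2:24336689-24336755: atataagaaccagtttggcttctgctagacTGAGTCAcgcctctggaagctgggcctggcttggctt
A match says only that these letters are present in the window.

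Values are given as CPM, counts relative to library size, after scaling between libraries by the trimmed mean of M values (TMM), and differences as log2 fold changes ± SE from edgeR's quasi-likelihood test, called at an adjusted p under 0.05. Libraries held between 28474301 and 29479629 counts on genes, so that 3 counts, taken as the floor, amount to at most 0.134 CPM. Col4a3 was between 194 and 238 CPM in WT mice and between 27.9 and 74.9 CPM in the Col4a3-/- mice, which follows the labels without reaching 0. The extraction text in the labels speaks of adipose tissue while the tissue label is kidney. The summed CPM of 5 proximal tubule markers was between 1246 and 14710 in every library. That of 4 adipocyte markers was 410, 366 and 351 in Veh mice A1, A4 and A9 and 224 in anti-miR-21 mouse A12, and at most 55.4 in the other 16 mice. Results that rest on these 4 libraries are given with and without them. Libraries were run on 2 flow cells, 13 mice on the first and 7 on the second, with 1 ACEi mouse on the first. In whole kidney RNA, fewer cells of a type and less RNA per cell cannot be told apart.

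Most tested interleukin ligands were higher in Veh than in WT kidneys. Of the 16, 12 were higher (75%), 2 were lower (12.5%) and 2 were not called, where 39.0% of all 17622 tested genes were higher and 34.0% lower. The median log2 fold change was 2.42 over the ligands and 0.07 over all genes. The ligands that had to be left out for low counts number 21, so these shares describe the ligands that could be measured. Within the first flow cell, 14 of 20 tested ligands were higher and 2 lower. No share of all genes called in that fit was at hand to set beside these counts.

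Il1f6 encodes interleukin-36 alpha, an interleukin-1 family ligand of epithelial cells (chr2:24215418-24225702, plus strand). No read was counted in any WT mouse. Veh mice had a lowest, median and highest value of 2.48, 3.54 and 5.0 CPM, anti-miR-21 mice of 2.32, 2.53 and 3.85 CPM, and the ACEi mice had 2.79, 4.29 and 3.99 CPM. Every Col4a3-/- mouse was thus above every WT mouse, and the treated groups overlapped with Veh. Against the floor of 3 counts per library, the Veh mean was at least 27.1-fold higher than WT (adjusted p = 3.32e-11). The log2 fold change from Veh was -0.42 ± 0.19 under anti-miR-21 (adjusted p = 0.0646) and 0.03 ± 0.23 under ACEi (adjusted p = 0.943).

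The classical interleukin-1 ligands rose together with it. Il1b, the secreted pyrogenic form that caspase-1 releases, was 1.02, 1.07, 0.253, 1.35 and 0.336 CPM in WT mice. In Veh mice its lowest, median and highest values were 10.2, 11.4 and 25.3 CPM, in anti-miR-21 mice 3.33, 4.83 and 6.60 CPM, and the ACEi mice had 6.76, 6.66 and 8.69 CPM. No Veh mouse overlapped with WT or with either treated group. The log2 fold change was 4.14 ± 0.35 between Veh and WT (adjusted p = 1.48e-09), -1.52 ± 0.27 under anti-miR-21 (adjusted p = 6.83e-05) and -0.95 ± 0.33 under ACEi (adjusted p = 0.0279). Without the 4 adipocyte-rich libraries the ACEi value was -1.06 and no longer called (adjusted p = 0.0587). The exons of Il1b overlap those of the antisense gene Il1bos. Il1a, the alarmin form, was lower throughout, at 0.0891, 0.0410, 0, 0.0818 and 0.126 CPM in WT mice. Its values were 0.494, 1.04 and 1.43 CPM at the lowest, median and highest Veh mouse, 0.101, 0.286 and 0.450 CPM likewise under anti-miR-21, and 0.361, 0.0358 and 0.102 CPM in the ACEi mice. Veh mice stood above all others, with a log2 fold change of 3.81 ± 0.55 over WT (adjusted p = 3.22e-06), while ACEi mice overlapped with WT. The change from Veh was -1.82 ± 0.42 under anti-miR-21 (adjusted p = 8.68e-04) and -2.54 ± 0.57 under ACEi (adjusted p = 0.00171).

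Il33, the alarmin that binds ST2 and is stored in the nuclei of stromal and epithelial cells (chr19:29925114-29960718, plus strand), carried the largest counts among the ligands that rose by more than 3 on the log2 scale. WT mice had 4.68, 4.96, 6.97, 3.84 and 2.22 CPM. Veh mice were tightly grouped, with a lowest, median and highest value of 37.8, 39.9 and 43.4 CPM. Under anti-miR-21 these were 10.7, 13.6 and 20.8 CPM, and the ACEi mice had 20.6, 29.7 and 33.7 CPM. Both treated groups lay wholly below Veh and wholly above WT. The difference between Veh and WT was 3.14 ± 0.22 (8.81-fold, adjusted p = 1.32e-10), and that of anti-miR-21 from Veh was -1.47 ± 0.19 (adjusted p = 1.46e-06). For ACEi it was -0.51 ± 0.22 and was not called (adjusted p = 0.0742).

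The interleukin-6 cytokines signal through the shared chain gp130. Il6 itself was almost absent from WT kidneys, where 1 read was counted over the 5 mice. Veh mice had a lowest, median and highest value of 0.525, 0.920 and 1.63 CPM, anti-miR-21 mice of 0, 0.339 and 0.552 CPM, and the ACEi mice had 0.820, 1.15 and 0.238 CPM. All Veh and all ACEi mice exceeded WT, and the ratio of the Veh mean to WT was 119 with a 95% counting interval from 21.4 to 4707, which covers counting error only. Between Veh and WT the adjusted p was 1.61e-06. The log2 fold change from Veh was -1.57 ± 0.48 under anti-miR-21 (adjusted p = 0.00794) and -0.45 ± 0.56 under ACEi (adjusted p = 0.547). Without the 4 adipocyte-rich libraries the anti-miR-21 value was -0.95 and not called (adjusted p = 0.0933). Il11, a profibrotic cytokine of the same family, was 0.178, 0.287, 0.380, 0.286 and 0.0419 CPM in WT mice. The lowest, median and highest values were 2.78, 4.0 and 5.18 CPM in Veh and 0.375, 1.16 and 1.76 CPM under anti-miR-21, and the ACEi mice had 1.51, 1.79 and 1.47 CPM. Veh mice overlapped with no other group. Il11 rose by 4.08 ± 0.38 (adjusted p = 6.86e-09), and its difference from Veh was -1.88 ± 0.29 under anti-miR-21 (adjusted p = 1.87e-05) and -1.35 ± 0.37 under ACEi (adjusted p = 0.00646).

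Il23a encodes the p19 subunit of interleukin-23, and Il12b the p40 subunit that interleukins 12 and 23 share. Il23a was 0.0891, 0.0410, 0.127, 0 and 0 CPM in WT mice, with a lowest, median and highest value of 0.401, 0.617 and 0.742 CPM in Veh. Under anti-miR-21 these were 0, 0.0362 and 0.150 CPM, and the ACEi mice had 0.262, 0.215 and 0.238 CPM. The anti-miR-21 mice overlapped with WT and lay below every ACEi mouse, and the ACEi mice lay between Veh and WT. Il23a rose by 3.44 ± 0.57 (adjusted p = 1.67e-05) and was -3.22 ± 0.50 from Veh under anti-miR-21 (adjusted p = 1.69e-05), -1.29 ± 0.53 under ACEi (adjusted p = 0.0575) and -1.92 ± 0.62 between the treatments (adjusted p = 0.154). WT values rest on 6 counts over 5 mice. Il12b was 0.0445, 0.0410, 0.0422, 0.123 and 0 CPM in WT mice, again on 6 counts. In Veh mice it was 0.0829, 0.141 and 0.140 CPM in A1, A4 and A9, the libraries with high adipocyte markers, and 0.802, 0.550 and 0.593 CPM in A16, A19 and A20. The anti-miR-21 values were 0.194, 0.300 and 0.898 CPM at the lowest, median and highest mouse, and the ACEi mice had 0.426, 1.0 and 0.477 CPM. Il12b rose by 2.82 ± 0.74 over WT (adjusted p = 0.00198) and by 3.57 without the 4 libraries (adjusted p = 8.78e-05). From Veh it differed by 0.04 ± 0.51 under anti-miR-21 (adjusted p = 0.947) and 0.72 ± 0.60 under ACEi (adjusted p = 0.358).

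The ligands Il15 and Il17f fell between WT and Veh. Il15, which sustains natural killer and memory T cells and is made by tubule cells, was 13.4, 10.0, 10.3, 13.7 and 13.9 CPM in WT mice. The lowest, median and highest values were 4.48, 6.04 and 8.67 CPM in Veh and 8.21, 10.7 and 12.5 CPM under anti-miR-21, and the ACEi mice had 7.05, 10.4 and 8.45 CPM. Every Veh mouse was below every WT mouse. The difference was -0.97 ± 0.16 between Veh and WT (adjusted p = 1.34e-05), 0.72 ± 0.15 between anti-miR-21 and Veh (adjusted p = 3.80e-04) and 0.46 ± 0.18 between ACEi and Veh (adjusted p = 0.0503). With library totals alone these were -0.39 (adjusted p = 0.0206), 0.39 (adjusted p = 0.0202) and 0.19 (adjusted p = 0.361). The summed proximal tubule markers moved in the same direction, with medians of 12680 CPM in WT, 1912 in Veh, 7552 under anti-miR-21 and 6529 under ACEi, and their part in the Il15 values was not tested. Il17f, a ligand of the interleukin-17 receptor, was low everywhere, at 0.312, 0.492, 0.760, 0.286 and 1.05 CPM in WT mice. In Veh its lowest, median and highest values were 0, 0.0827 and 0.310 CPM, under anti-miR-21 0.301, 0.446 and 1.32 CPM, and the ACEi mice had 0.295, 0.644 and 0.341 CPM. Veh and WT overlapped in 1 mouse of each, and the difference of -2.19 ± 0.64 (adjusted p = 0.00438) was -1.36 and not called without the 4 adipocyte-rich libraries (adjusted p = 0.0519). Under anti-miR-21 it was higher than in Veh by 2.23 ± 0.61 (adjusted p = 0.00383), and under ACEi the difference was 1.74 ± 0.72 (adjusted p = 0.0612).

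**Figure D1:**
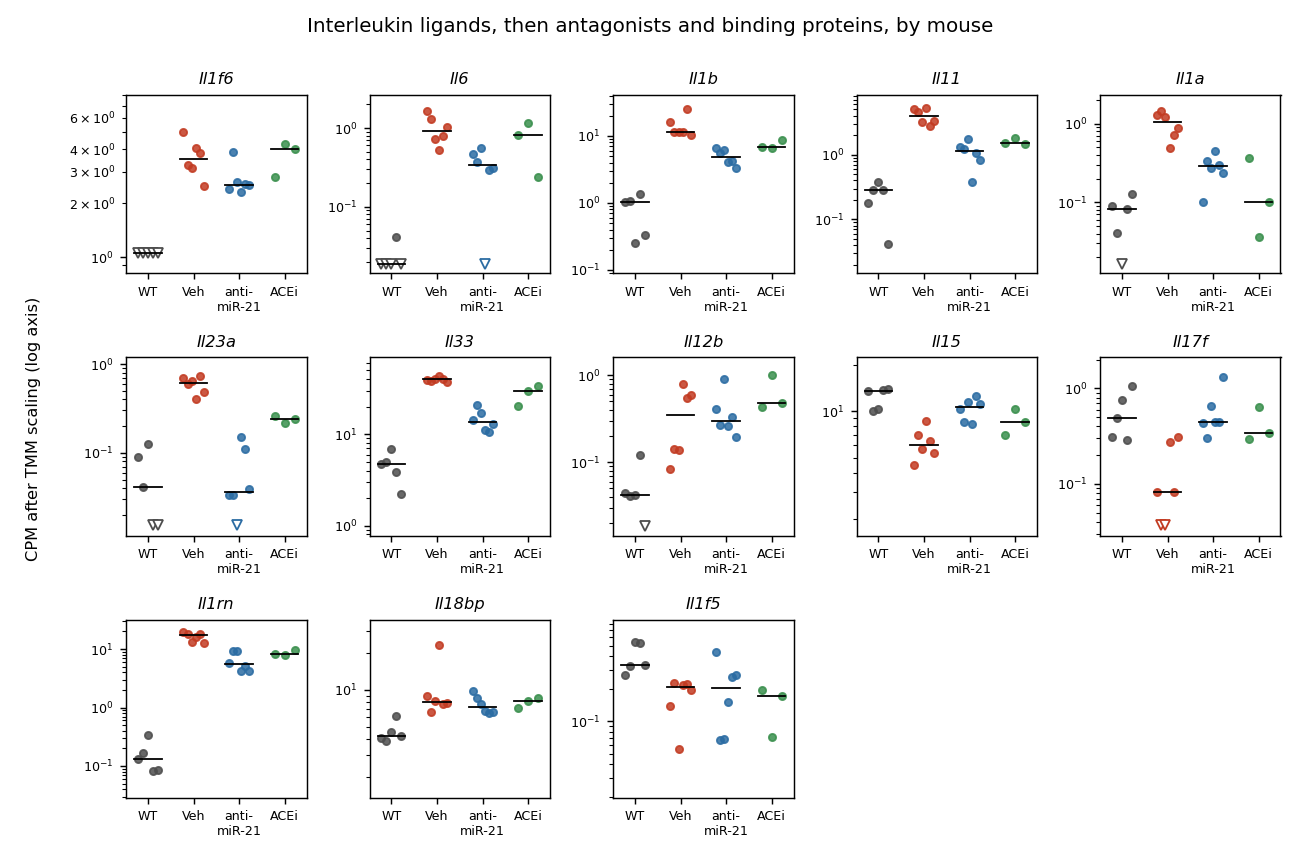
Each panel plots the CPM of 1 gene on a log axis, with 1 point per mouse, a line at the group median and open triangles at the lower edge for libraries at 0. The Veh points of Il1b, Il11, Il1a, Il23a and Il33 lie above those of all 3 other groups, those of Il1f6 overlap with both treated groups, and those of Il15 and Il17f lie low.

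Another 4 ligands rose by smaller amounts. Il16, a T cell chemoattractant, rose by 2.02 ± 0.16 (adjusted p = 8.27e-10) and Il34, a second ligand of the macrophage receptor Csf1r, by 1.17 ± 0.12 (adjusted p = 2.67e-08). Il7, a lymphocyte survival factor, rose by 0.81 ± 0.20 (adjusted p = 0.0012) and Il18, an interleukin-1 family cytokine of epithelium, by 0.73 ± 0.18 (adjusted p = 0.00122). Il1f9, which encodes interleukin-36 gamma, and Il17d were not called, at 0.81 ± 0.44 (adjusted p = 0.101) and 0.68 ± 0.32 (adjusted p = 0.059). With library totals alone both were called, at 1.395 (adjusted p = 0.006725) and 1.257 (adjusted p = 0.001654). Exons of Il16, Il34 and Il7 overlap those of other genes, so their counts may hold reads of these.

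Il34 had the highest length-scaled level of all ligands in each group. Its deposited FPKM, fragments scaled by transcript length and library size, was 29.2 ± 5.25 in WT (SD, n = 5), 98.8 ± 14.3 in Veh (n = 6), 44.0 ± 7.93 under anti-miR-21 (n = 6) and 63.2 ± 7.0 under ACEi (n = 3). In WT kidneys Il15 came next at 9.03 ± 1.47 FPKM, then Il18 at 2.57 ± 0.508, Il33 at 1.47 ± 0.549 and Il16 at 1.28 ± 0.400, and the last 2 did not differ beyond their SDs. In Veh kidneys the order below Il34 was Il33 at 19.6 ± 0.550 FPKM, Il1b at 13.4 ± 5.77, Il16 at 8.0 ± 0.908, Il15 at 6.81 ± 1.68, Il18 at 6.28 ± 0.974 and Il1f6 at 5.20 ± 1.20. The ranges set by 1 SD overlap for each neighbouring pair from Il33 to Il1f6. Il11 stood at 2.58 ± 0.610 FPKM, and Il6 at 0.981 ± 0.398. The authors' table marks the FPKM of 12 family genes as confounded with another gene, which are Il1a, Il1b, Il7, Il18, Il1r2, Il1rap, Il10ra, Il11ra1, Il11ra2, Il20ra, Il27ra and Il4i1. The number of ligands with a group mean of at least 1 FPKM was 5 in WT, 9 in Veh, 7 under anti-miR-21 and 7 under ACEi, of 37. FPKM are not TMM-scaled. With library totals alone in place of TMM, the median over all genes tested was 0.65 in place of 0.07 on the log2 scale between Veh and WT, so ratios of FPKM between groups differ from the folds above.

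**Figure D2:**
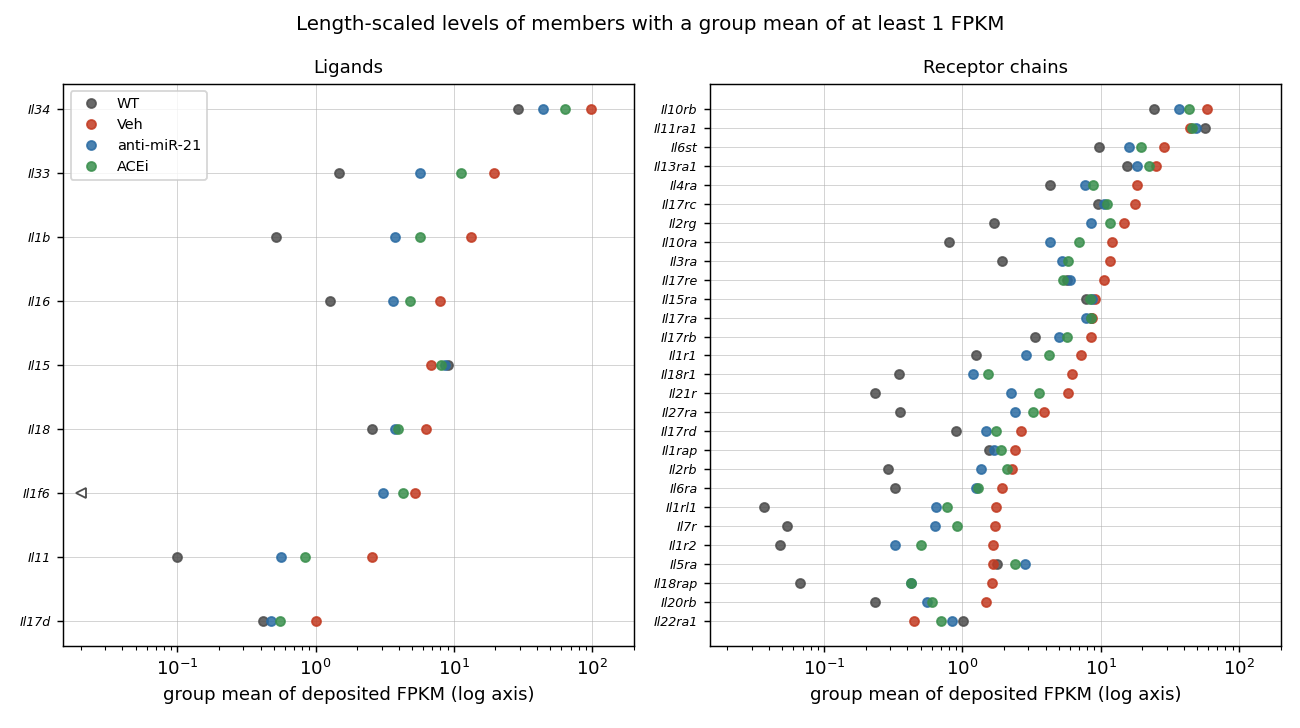
Group means of the deposited FPKM are plotted on a log axis for ligands and receptor chains that reached 1 FPKM in some group, 1 point per group, with an open triangle for a group at 0. Il34 is the highest ligand in each group, and Il10rb and Il11ra1 are the highest receptor chains.

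Ligands under the filter held few reads. Of the 21, 5 (Il3, Il17b, Il19, Il20 and Il22) had 0 counts in all 20 libraries, where the floor is 3 counts per library. The highest total was 81 counts over 20 mice, for Il27, the p28 subunit of interleukin-27, with 1 count in WT, 46 in Veh, 15 under anti-miR-21 and 19 under ACEi. Il12a had 2, 23, 4 and 1 counts in the same order, Il24 had 1, 25, 2 and 0, and Il2 had 11, 30, 22 and 9. The type 2 ligands Il4, Il5 and Il13 totalled 34, 28 and 3 counts. Il17a had 3 counts and Il17c 75. Of the 26 counts of Il10, 15 came from 1 ACEi library. No test was made on these genes.

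The antagonists did not share 1 direction. Il1rn, the interleukin-1 receptor antagonist (chr2:24336853-24351494, plus strand), showed the largest called change of the family among genes read in every group. WT mice had 0.134, 0.164, 0.338, 0.0818 and 0.0839 CPM and Veh mice a lowest, median and highest value of 12.9, 17.1 and 19.9 CPM. These were 4.20, 5.51 and 9.31 CPM under anti-miR-21, and the ACEi mice had 8.40, 7.84 and 9.71 CPM. The 4 groups separated except that the treated groups overlapped with each other. The difference was 6.65 ± 0.33 between Veh and WT (100-fold, adjusted p = 2.17e-12), -1.38 ± 0.20 between anti-miR-21 and Veh (adjusted p = 6.45e-06) and -0.93 ± 0.25 between ACEi and Veh (adjusted p = 0.00532).

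Il18bp, which binds interleukin-18 in the extracellular space, was 4.10, 3.85, 4.56, 6.17 and 4.28 CPM in WT mice. The lowest, median and highest values were 6.66, 8.0 and 23.1 CPM in Veh and 6.57, 7.22 and 9.73 CPM under anti-miR-21, and the ACEi mice had 7.15, 8.20 and 8.65 CPM. All Col4a3-/- mice exceeded WT, and Veh mouse A16 stood far above the rest. The rise of 1.17 ± 0.26 (adjusted p = 4.68e-04) was 0.77 without that mouse (adjusted p = 6.25e-05). From Veh it differed by -0.43 ± 0.24 under anti-miR-21 (adjusted p = 0.127) and -0.37 ± 0.30 under ACEi (adjusted p = 0.337), and without A16 by -0.011 (adjusted p = 0.949) and 0.058 (adjusted p = 0.799). Its exons overlap those of Numa1. Il1f5, the interleukin-36 receptor antagonist, was 0.267, 0.328, 0.549, 0.531 and 0.336 CPM in WT mice and 0.0560, 0.207 and 0.225 CPM at the lowest, median and highest Veh mouse. It was 0.0670, 0.204 and 0.438 CPM likewise under anti-miR-21, and the ACEi mice had 0.197, 0.0716 and 0.170 CPM. Veh mice lay below WT, with a log2 difference of -1.18 ± 0.44 (adjusted p = 0.0202), a call lost without the 4 adipocyte-rich libraries (-0.92, adjusted p = 0.132), within the first flow cell and with library totals alone (-0.61, adjusted p = 0.205). Against Veh neither treatment was called (0.25 ± 0.44, adjusted p = 0.647, and -0.24 ± 0.56, adjusted p = 0.759). Il22ra2, a decoy for interleukin-22, totalled 7 counts. Il4i1, a secreted amino acid oxidase, rose by 0.94 ± 0.07 (adjusted p = 3.91e-10), and its exons overlap those of Atf5, Nup62 and Tbc1d17. Its FPKM, which is among the confounded ones, went from 0.446 ± 0.131 in WT to 4.48 ± 1.36 in Veh.

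Receptor chains followed the ligands. Of the 32 tested, 25 were higher in Veh than in WT kidneys (78.1%, against 39.0% of all genes), 5 were lower (15.6%, against 34.0%) and 2 were not called. Their median log2 fold change was 2.02, beside 0.07 over all genes. The first flow cell alone gave 25 higher and 5 lower of 33, again with no share of all genes in that fit at hand. Another 8 chains had too few counts for a test, and the largest total among them was 64, for Il23r.

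A group of 6 receptor genes of the interleukin-1 family lies together on chromosome 1 between positions 40074079 and 40551705 (GRCm38). All 6 were higher in Veh, where 39.0% of all tested genes were. The group holds Il1r2, Il1r1, Il1rl2, Il1rl1, Il18r1 and Il18rap, and 4 of them hold the NF-kB letters shown above. A cluster of interleukin-1 family ligands and antagonists lies on chromosome 2 between positions 24153161 and 24351494. Of its 6 genes, 4 were tested and 2 were higher in Veh. Il1r2, a decoy receptor that binds interleukin-1 without signalling, was 0.0445, 0, 0.127, 0.164 and 0 CPM in WT mice. Its lowest, median and highest values were 1.26, 1.68 and 2.46 CPM in Veh and 0.242, 0.372 and 0.741 CPM under anti-miR-21, and the ACEi mice had 0.557, 0.465 and 0.920 CPM. Veh mice stood above both treated groups, which stood above WT. The rise was 4.66 ± 0.51 (adjusted p = 5.69e-08), with -2.11 ± 0.36 under anti-miR-21 (adjusted p = 5.15e-05) and -1.47 ± 0.45 under ACEi (adjusted p = 0.013) relative to Veh. Il1r1, the signalling receptor, rose by 1.95 ± 0.12 (adjusted p = 3.11e-11), whereas Il1rap, the accessory chain that it shares with ST2 and the interleukin-36 receptor, had 0.15 ± 0.12 and was not called (adjusted p = 0.268). With library totals alone Il1rap was 0.73 and called (adjusted p = 3.92e-05), where the median over all genes was 0.65.

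Il1rl1 encodes ST2, the receptor of interleukin-33. It was 0.178, 0.164, 0.338, 0.327 and 0.0839 CPM in WT mice, against a lowest, median and highest value of 3.46, 5.03 and 8.30 CPM in Veh. Under anti-miR-21 these were 1.71, 2.50 and 4.32 CPM, and ACEi mice had 3.28, 4.26 and 1.91 CPM. All Col4a3-/- mice exceeded WT, and both treated groups overlapped with Veh. The difference from WT was 4.60 ± 0.36 in Veh (adjusted p = 5.85e-10), and that from Veh was -1.0 ± 0.25 under anti-miR-21 (adjusted p = 0.00212) and -0.78 ± 0.32 under ACEi (adjusted p = 0.057). Il1rl2, the interleukin-36 receptor, was 1.25, 1.64, 1.31, 1.19 and 0.545 CPM in WT mice. Veh mice gave 8.39, 10.4 and 12.1 CPM at the lowest, median and highest, anti-miR-21 mice 3.02, 4.19 and 5.46 CPM, and ACEi mice 6.49, 5.47 and 6.58 CPM. The ACEi mice lay between Veh and anti-miR-21 with no overlap. Il1rl2 rose by 3.12 ± 0.21 (adjusted p = 6.04e-11) and fell from Veh by 1.26 under anti-miR-21 (adjusted p = 3.12e-06) and by 0.74 under ACEi (adjusted p = 0.00806).

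The interleukin-18 receptor is a pair of chains, Il18r1 and Il18rap. Il18r1 was 0.713, 0.902, 2.79, 1.72 and 1.13 CPM in WT mice, 13, 16.9 and 22.6 CPM at the lowest, median and highest Veh mouse and 2.87, 3.85 and 6.33 CPM likewise under anti-miR-21. The ACEi mice had 6.10, 4.22 and 5.83 CPM. Il18rap was 0.490, 0.205, 0.802, 0.245 and 0.252 CPM in WT mice, 5.55, 6.24 and 8.20 CPM in Veh and 1.09, 1.98 and 3.35 CPM under anti-miR-21 in the same form, and 1.77, 2.15 and 2.25 CPM in the ACEi mice. For both chains every Veh mouse was above, and every WT mouse below, all treated mice. Il18r1 rose by 3.55 ± 0.29 (adjusted p = 8.08e-10) and Il18rap by 4.01 ± 0.31 (adjusted p = 4.08e-10). Relative to Veh, Il18r1 was -2.03 ± 0.24 under anti-miR-21 (adjusted p = 6.30e-07) and -1.66 ± 0.30 under ACEi (adjusted p = 2.72e-04). Il18rap was -1.63 ± 0.24 (adjusted p = 8.28e-06) and -1.65 ± 0.31 (adjusted p = 3.27e-04). Their ligand Il18 had a rise of 0.73 only.

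Lymphocyte receptors that use the common gamma chain rose as well. Il7r, the interleukin-7 receptor, was 0.401, 0.287, 0.0845, 0.164 and 0.0839 CPM in WT mice and 3.15, 4.37 and 5.50 CPM at the lowest, median and highest Veh mouse. Under anti-miR-21 the values were 1.09, 2.01 and 2.66 CPM, and ACEi mice had 2.17, 3.08 and 3.10 CPM. Both treated groups lay between Veh and WT. It rose by 4.37 ± 0.33 (adjusted p = 3.0e-10), and the difference from Veh was -1.10 ± 0.23 under anti-miR-21 (adjusted p = 4.32e-04) and -0.62 ± 0.29 under ACEi (adjusted p = 0.0927). Il21r, the interleukin-21 receptor, was 0.713, 1.02, 0.676, 0.940 and 0.336 CPM in WT mice and 9.99, 12.2 and 14.5 CPM at the lowest, median and highest in Veh. It was 4.61, 5.53 and 7.71 CPM under anti-miR-21 and 7.15, 9.70 and 10.3 CPM in the ACEi mice. Here ACEi mice overlapped with Veh and anti-miR-21 mice did not. The rise was 4.02 ± 0.22 (adjusted p = 5.78e-12), with -1.05 ± 0.17 under anti-miR-21 (adjusted p = 1.82e-05) and -0.41 ± 0.20 under ACEi (adjusted p = 0.109).

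Il2ra, the alpha chain that regulatory and activated T cells carry, was 0.445, 0.328, 0.338, 0.123 and 0 CPM in WT mice. Lowest, median and highest were 1.74, 3.44 and 4.16 CPM in Veh and 0.812, 1.13 and 1.48 CPM under anti-miR-21, and ACEi mice had 1.48, 1.32 and 1.94 CPM. Only 1 ACEi mouse reached the range of Veh. The rise was 3.68 ± 0.41 (adjusted p = 9.46e-08), and relative to Veh it was -1.47 ± 0.32 under anti-miR-21 (adjusted p = 5.73e-04) and -1.01 ± 0.40 under ACEi (adjusted p = 0.0495), of which the latter was lost without the 4 adipocyte-rich libraries (adjusted p = 0.109). The beta chain Il2rb, shared with the interleukin-15 receptor, was 0.713, 1.48, 1.18, 1.15 and 0.168 CPM in WT mice, 2.32, 4.65 and 7.96 CPM at the lowest, median and highest in Veh, 2.79, 3.25 and 6.13 CPM under anti-miR-21 and 4.26, 6.58 and 5.93 CPM under ACEi. The common gamma chain Il2rg was 2.94, 4.31, 4.14, 3.23 and 1.97 CPM in WT mice, 13.2, 19.6 and 24.1 CPM in Veh, 10.7, 13.7 and 17.2 CPM under anti-miR-21 and 14.9, 21.5 and 19.2 CPM under ACEi. All 15 Col4a3-/- mice were above WT for both chains, and the 3 Col4a3-/- groups overlapped. Il2rb rose by 2.39 ± 0.38 (adjusted p = 1.12e-05) and was -0.40 ± 0.32 from Veh under anti-miR-21 (adjusted p = 0.288) and 0.18 ± 0.38 under ACEi (adjusted p = 0.746). Il2rg rose by 2.53 ± 0.19 (adjusted p = 2.62e-10) and was -0.46 ± 0.16 (adjusted p = 0.0165) and -0.05 ± 0.19 (adjusted p = 0.861). The anti-miR-21 call of Il2rg was lost within the first flow cell and without Veh mouse A16. Exons of Il2rg overlap those of Gm20489.

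Receptor chains of myeloid and T cells rose too. Il10ra, the ligand-binding chain for interleukin-10, was 2.81, 4.55, 3.51, 4.05 and 1.64 CPM in WT mice and 27.2, 32.5 and 45.0 CPM at the lowest, median and highest Veh mouse. Under anti-miR-21 it was 11.5, 14.3 and 20.2 CPM, and the ACEi mice, at 22.1, 22.3 and 27.1 CPM, lay between both groups. It rose by 3.34 ± 0.22 (adjusted p = 5.65e-11) and was -1.16 ± 0.18 from Veh under anti-miR-21 (adjusted p = 1.46e-05) and -0.50 ± 0.22 under ACEi (adjusted p = 0.0762). Il27ra, which binds interleukin-27, was 1.29, 1.39, 1.23, 0.981 and 0.797 CPM in WT mice, 6.86, 8.51 and 9.69 CPM at the lowest, median and highest in Veh, 4.32, 6.56 and 8.48 CPM under anti-miR-21 and 6.36, 9.88 and 8.99 CPM under ACEi. The groups of Col4a3-/- mice overlapped, all above WT. It rose by 2.86 ± 0.20 (adjusted p = 1.42e-10), with -0.36 ± 0.16 under anti-miR-21 (adjusted p = 0.0652) and 0.02 ± 0.20 under ACEi (adjusted p = 0.943), and its exons overlap those of Palm3. Il6ra, the ligand-binding chain for interleukin-6, was 3.34, 4.92, 3.97, 3.60 and 2.27 CPM in WT mice, 11.8, 16.2 and 20.3 CPM at the lowest, median and highest in Veh, 8.84, 12.4 and 18.7 CPM under anti-miR-21 and 14.1, 11.7 and 14.2 CPM under ACEi. It also separated WT from all other mice. Its rise was 2.17 ± 0.21 (adjusted p = 8.10e-09), and it was -0.34 ± 0.18 from Veh under anti-miR-21 (adjusted p = 0.105) and -0.29 ± 0.22 under ACEi (adjusted p = 0.312). Exons of Il6ra overlap those of Gm42809.

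The largest counts among the 5 chains that were lower in Veh were those of Il11ra1. Il11ra1 is the receptor of interleukin-11 (chr4:41699989-41769474, plus strand), whose exons overlap those of Ccl27a. WT mice had 121, 114, 122, 129 and 131 CPM, and Veh mice a lowest, median and highest value of 56.8, 67.1 and 72.2 CPM. Those were 78.3, 87.7 and 106 CPM under anti-miR-21, and ACEi mice had 77.2, 88.9 and 77.4 CPM. Veh, treated and WT mice formed 3 ranges without overlap. The difference was -0.93 ± 0.08 between Veh and WT (adjusted p = 4.16e-09), 0.48 ± 0.08 between anti-miR-21 and Veh (adjusted p = 3.92e-05) and 0.32 ± 0.10 between ACEi and Veh (adjusted p = 0.0128). With library totals alone these were -0.35 (adjusted p = 4.48e-05), 0.13 (adjusted p = 0.0571) and 0.050 (adjusted p = 0.583), so that neither treatment was called against Veh. Between Veh and WT, the ligand Il11 and its receptor moved in opposite directions.

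Il22ra1, the epithelial chain for interleukin-22, was 0.490, 1.35, 0.929, 0.368 and 0.503 CPM in WT mice. In Veh it was 0.0276, 0.0281 and 0.0560 CPM in A1, A4 and A9 and 0.432, 0.165 and 0.226 CPM in A16, A19 and A20. It was 0.101, 0.286 and 0.370 CPM at the lowest, median and highest under anti-miR-21 and 0.426, 0.322 and 0.579 CPM in the ACEi mice. The 3 Veh libraries with high adipocyte markers were the 3 lowest of the group. The difference of -2.22 ± 0.53 (adjusted p = 8.19e-04) was -1.41 without the 4 libraries (adjusted p = 0.0197), and neither treatment was called against Veh (0.79 ± 0.54, adjusted p = 0.215, and 1.5 ± 0.61, adjusted p = 0.0543). Il5ra, the interleukin-5 receptor of eosinophils and B cells, was 5.97, 5.82, 7.31, 5.40 and 4.28 CPM in WT mice, 2.24, 3.87 and 4.12 CPM at the lowest, median and highest in Veh, 4.99, 7.32 and 10.6 CPM under anti-miR-21 and 7.08, 5.05 and 6.44 CPM under ACEi. Veh mice lay below the 3 other groups. The difference was -0.67 ± 0.19 between Veh and WT (adjusted p = 0.00326), 1.10 ± 0.18 between anti-miR-21 and Veh (adjusted p = 2.89e-05) and 0.78 ± 0.21 between ACEi and Veh (adjusted p = 0.00691). With library totals alone the difference between Veh and WT was -0.091 and not called (adjusted p = 0.661).

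Il17ra, the chain that all interleukin-17 receptors share, was 41.1, 47.2, 46.1, 36.6 and 36.3 CPM in WT mice, 23.7, 32.0 and 32.5 CPM at the lowest, median and highest in Veh, 30.7, 33.0 and 36.8 CPM under anti-miR-21 and 34.8, 37.0 and 34.0 CPM under ACEi. Il15ra, the receptor that presents interleukin-15, was 16.4, 14.9, 12.5, 15.3 and 16.4 CPM in WT mice, 8.76, 11.4 and 14.3 CPM in Veh, 12.7, 14.1 and 15.4 CPM under anti-miR-21 and 13.5, 13.1 and 12.2 CPM under ACEi. Both were lower in Veh, with log2 differences of -0.46 ± 0.09 (adjusted p = 6.88e-05) and -0.40 ± 0.10 (adjusted p = 0.00124), but turned to 0.12 and 0.18 when libraries were scaled by their totals alone. The direction of these small differences therefore depends on the scaling. Relative to Veh, Il17ra was 0.16 ± 0.08 under anti-miR-21 (adjusted p = 0.113) and 0.23 ± 0.10 under ACEi (adjusted p = 0.0739). Il15ra was 0.29 ± 0.10 (adjusted p = 0.0121), which turned to -0.044 with totals alone, and 0.18 ± 0.12 (adjusted p = 0.234).

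**Figure D3:**
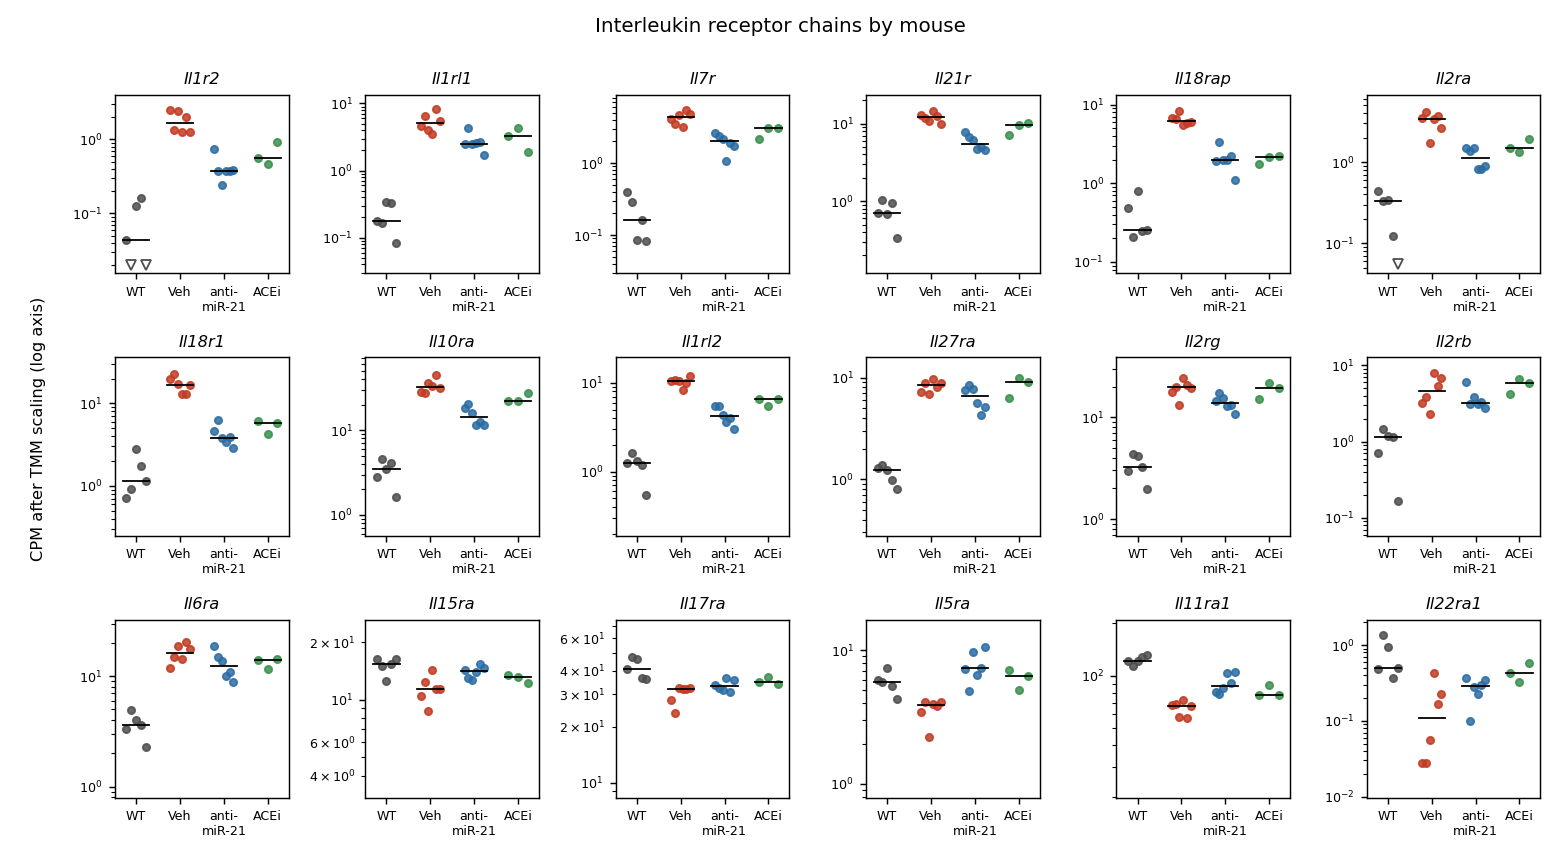
CPM of the 18 named receptor chains are plotted on log axes, 1 point per mouse with a line at the group median and open triangles for libraries at 0. The 13 chains that rose were chosen by their called differences from WT, and for these WT mice lie below all Col4a3-/- mice. Il5ra and Il11ra1 show Veh mice as the lowest group.

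The remaining chains that rose did so by between 0.30 and 2.54 on the log2 scale. Il3ra rose by 2.09 ± 0.15 (adjusted p = 2.04e-10), Il20rb by 2.10 ± 0.23 (adjusted p = 6.23e-08) and Il4ra, which serves interleukins 4 and 13, by 1.5 ± 0.09 (adjusted p = 3.59e-11). Il12rb1, shared by interleukins 12 and 23, rose by 1.64 ± 0.36 (adjusted p = 3.52e-04). Among the interleukin-17 receptor chains, Il17rd rose by 0.95, Il17rb by 0.74, Il17re by 0.30 (not called without the 4 adipocyte-rich libraries) and Il17rc by 0.30, in contrast to Il17ra. The broadly expressed shared chains rose little, with Il10rb at 0.67 ± 0.08 (adjusted p = 8.78e-08) and Il6st, which encodes gp130, at 0.47 ± 0.08 (adjusted p = 1.14e-05). Il13ra1 was not called, at 0.11 ± 0.07 (adjusted p = 0.163). It was called with library totals alone (0.69, adjusted p = 5.31e-08) and without the 4 adipocyte-rich libraries (0.19, adjusted p = 0.0284).

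The order of receptor chains by length-scaled level was as follows. In WT kidneys Il11ra1 stood at 56.5 ± 4.05 FPKM (SD, n = 5), Il10rb at 24.5 ± 1.76, Il13ra1 at 15.5 ± 1.09, Il6st at 9.70 ± 1.46 and Il17rc at 9.56 ± 1.5, of which the last 2 did not differ beyond their SDs. In Veh kidneys the order was Il10rb at 59.0 ± 4.86 FPKM (n = 6), Il11ra1 at 44.4 ± 3.32, Il6st at 28.6 ± 2.06, Il13ra1 at 25.2 ± 2.02 and Il4ra at 18.3 ± 1.89, with overlapping SD ranges for Il6st and Il13ra1. The levels of Il11ra1 and Il1r2 are among those marked as confounded. The chains with the largest log2 differences were low, with Il1r2 at 1.67 ± 0.559 FPKM, Il1rl1 at 1.74 ± 0.666 and Il7r at 1.73 ± 0.401 in Veh. Chains with a group mean of at least 1 FPKM numbered 16 in WT, 27 in Veh, 22 under anti-miR-21 and 22 under ACEi, of 40.

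Most measured ligands and receptor chains were lower under anti-miR-21 than in Veh. Of the 16 ligands, 11 were lower (68.8%) and 2 higher (12.5%), and of the 32 receptor chains 21 were lower (65.6%) and 3 higher (9.38%), where 30.5% of all genes were lower and 28.8% higher. The median log2 fold change was -0.76 over the ligands, -0.50 over the receptor chains and -0.04 over all genes. The 2 ligands that were higher were Il15 and Il17f, and the 3 receptor chains were Il5ra, Il11ra1 and Il15ra. Besides the named genes, Il34 fell by 0.82 (adjusted p = 3.68e-06), Il16 by 0.79 (adjusted p = 9.15e-05), Il4ra by 0.92 (adjusted p = 7.62e-08) and Il1r1 by 0.99 (adjusted p = 2.65e-07). Within the first flow cell, 10 of 20 ligands and 19 of 33 receptor chains were lower. Without the 4 adipocyte-rich libraries, 8 of 16 ligands and 20 of 32 receptor chains were lower, and the calls of Il6, Il17d, Il18, Il15ra and Il17rb were not made. No share of all genes was at hand for the fits within the first flow cell or without these libraries.

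ACEi was compared with the same Veh mice, with 3 treated mice in place of 6. Of the 16 ligands, 5 were lower (31.2%) and 0 were higher, and 11 of the 32 receptor chains were lower (34.4%) and 2 higher (6.25%), where 19.1% of all genes were lower and 21.0% higher. The 5 ligands were Il1a, Il1b, Il11, Il34 and Il7, and the 2 higher receptor chains were Il5ra and Il11ra1. The count of ligands is not stable, with 2 called when flow cell was a term and 2 without the 4 adipocyte-rich libraries. It was also 2 without Veh mouse A1, 3 without Veh mouse A19, 3 without ACEi mouse A11 and 2 without ACEi mouse A13. DESeq2 called 1 ligand higher and 7 lower. Without the 4 adipocyte-rich libraries, 7 receptor chains were lower and 2 higher, and the calls of Il1b, Il34, Il7, Il1r1, Il1r2, Il1rl2 and Il2ra were not made. No share of all genes was at hand for these alternative fits, so their counts cannot be compared with one. Il34 under ACEi was -0.37 ± 0.14 from Veh (adjusted p = 0.0409), Il4ra -0.77 ± 0.11 (adjusted p = 2.88e-05) and Il1r1 -0.50 ± 0.13 (adjusted p = 0.0057).

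No ligand or receptor chain was called in the direct comparison of anti-miR-21 with ACEi by edgeR, where 0.363% of all genes were higher and 0.221% lower. At an unadjusted p under 0.05 there were 3 ligands and 6 receptor chains, and DESeq2 called 1 ligand and 2 receptor chains. No share of all genes at the unadjusted threshold or by DESeq2 was at hand, so these counts cannot be compared with one. The smallest adjusted p among the ligands was that of Il33, -0.95 ± 0.22 (adjusted p = 0.0509), which DESeq2 and the fit with flow cell as a term called lower under anti-miR-21. Without anti-miR-21 mouse A8, edgeR also called Il33 and Il1r1. Il1r1 was -0.49 ± 0.13 (adjusted p = 0.0821) and Il21r -0.64 ± 0.20 (adjusted p = 0.14), the 2 receptor chains that DESeq2 called. An adjusted p above 0.05 does not show that the treatments act alike on these genes.

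**Figure D4:**
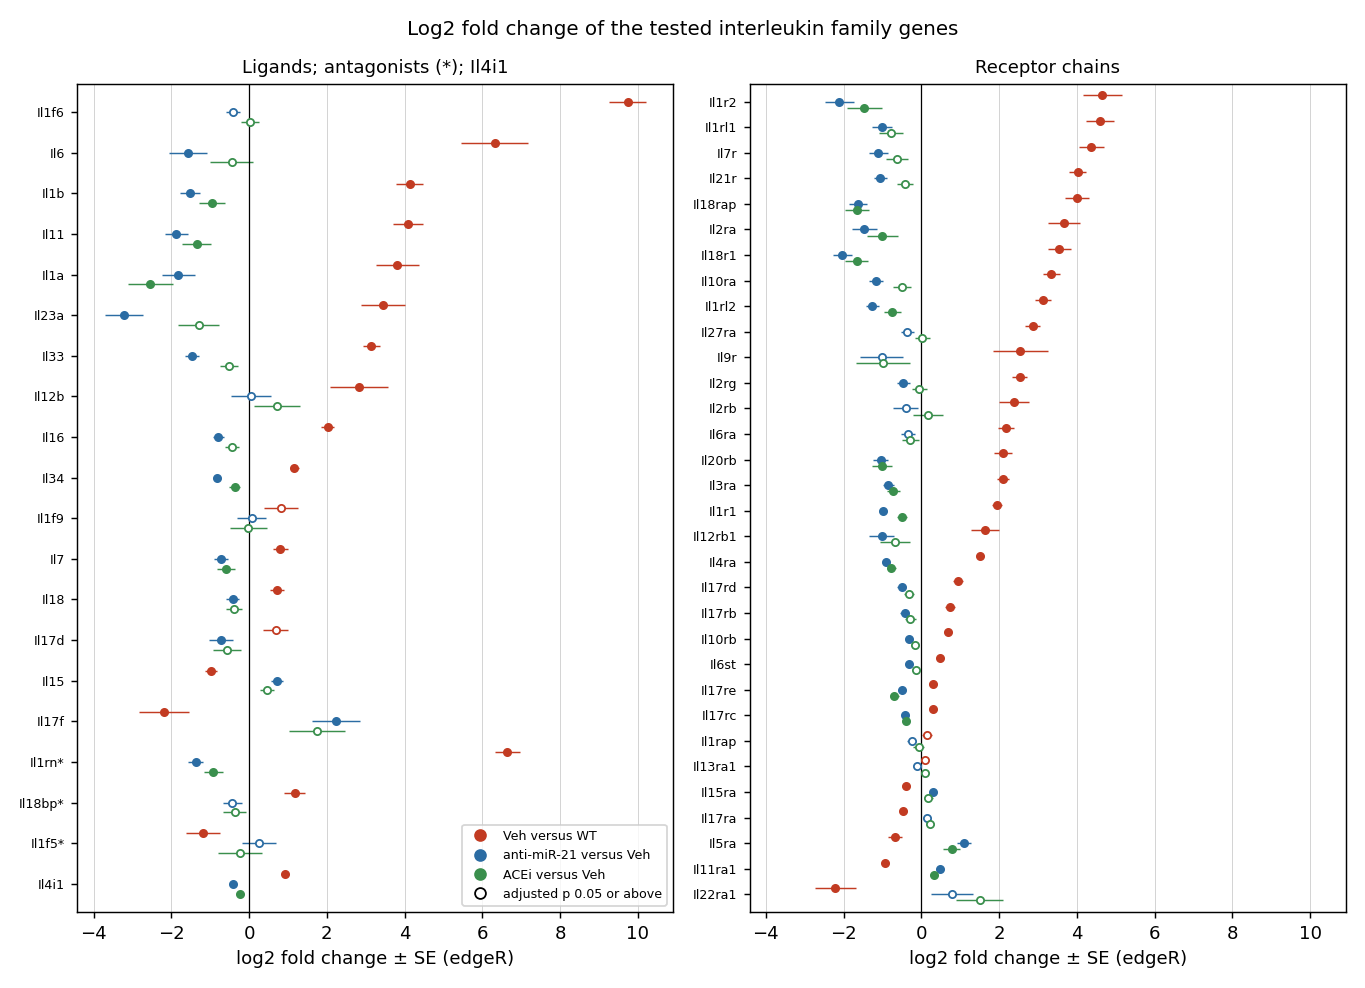
Log2 fold changes with SE are plotted for the 52 tested genes in the comparisons of Veh with WT, anti-miR-21 with Veh and ACEi with Veh, with filled points for an adjusted p under 0.05. Genes are ordered by their difference between Veh and WT, from Il1f6 (log2 fold change 9.73, a fitted value that depends on the prior count since WT had 0 counts) to Il17f among the ligands and from Il1r2 to Il22ra1 among the receptor chains.

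Of the 6 genes whose 3' untranslated region holds the seed match, 5 were lower under anti-miR-21 than in Veh, 0 were higher and Il6ra was not called, where 30.5% of all genes, 68.8% of the tested ligands and 65.6% of the tested receptor chains were lower. Il33, Il6, Il2ra, Il6st and Il17d had -1.47, -1.57, -1.47, -0.31 and -0.72 on the log2 scale. Under ACEi, Il2ra alone was called lower than Veh among these 6. Between anti-miR-21 and ACEi none was called, with -0.95 for Il33, -1.12 for Il6, -0.46 for Il2ra, -0.05 for Il6ra, -0.17 for Il6st and -0.15 for Il17d. At an unadjusted p under 0.05 there was 1 of the 6, Il33, again with no share of all genes at hand. Without the 4 adipocyte-rich libraries, Il6 and Il17d were not called against Veh under anti-miR-21, nor was Il2ra under ACEi.

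Relative to WT, part of the family stayed different under treatment. Of the ligands, 9 were higher and 0 lower in anti-miR-21 than in WT mice, and 19 receptor chains were higher and 3 lower, where 23.9% of all genes were higher and 19.8% lower. In ACEi mice 9 ligands were higher and 1 lower than in WT, and 22 receptor chains were higher and 2 lower, where 25.2% of all genes were higher and 22.5% lower. The WT mice are the same in both counts. Of the anti-miR-21 calls, 5 of 9 ligands and 18 of 22 receptor chains held in every alternative fit that tested the gene. For ACEi these were 9 of 10 and 20 of 24.

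A set of 9 genes was called in the same direction relative to WT in all 3 Col4a3-/- groups with less than 25% of the log2 difference removed by each treatment. These comparisons share the WT and Veh mice, and the rule fixes the pattern. The rule was applied to the family alone, and the share of all tested genes that meet it was not computed. For Il1f6, with 0 counts in WT, and Il6, with 1, the share removed depends on the prior count, and Il6 lies at the limit with 24.9% removed under anti-miR-21. The genes are the ligands Il1f6, Il12b and Il6, the antagonist Il1rn, and the receptor chains Il1rl1, Il27ra, Il2rb, Il2rg and Il6ra. Il27ra was 2.86 above WT in Veh, 2.50 under anti-miR-21 and 2.88 under ACEi on the log2 scale. Il2rg had 2.53, 2.07 and 2.48 in the same order, Il2rb 2.39, 1.99 and 2.57, and Il6ra 2.17, 1.83 and 1.88. Il12b had 2.82, 2.87 and 3.54. For Il6, Il1rl1, Il2rg and Il1rn the fall from Veh under anti-miR-21 was nevertheless called, with adjusted p of 0.00794, 0.00212, 0.0165 and 6.45e-06. With library totals alone it was also called for Il1f6 (-0.75, adjusted p = 0.00276), Il27ra (-0.68, adjusted p = 0.00221) and Il6ra (-0.66, adjusted p = 0.00736). Summed T cell markers, beside which Il2rb, Il2rg and Il27ra are read, had medians of 3.63 CPM in WT, 35.1 in Veh, 16.6 under anti-miR-21 and 31.2 under ACEi.

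Markers of several cell types, though not of all, moved with these genes. The 8 macrophage markers were all higher in Veh than in WT, with summed levels between 149 and 167 CPM in WT, 1002 and 1268 in Veh, 413 and 647 under anti-miR-21 and 542 and 652 under ACEi. All 8 T cell markers were higher too, from between 2.63 and 4.59 CPM in WT to between 21.4 and 57.6 in Veh, 15.0 and 28.7 under anti-miR-21 and 20.8 and 33.0 under ACEi. Against Veh, 7 of these 8 were called lower under anti-miR-21 and 0 under ACEi, where 30.5% and 19.1% of all genes were lower. For macrophage markers these were 8 and 7 of 8. The 5 fibroblast markers went from between 111 and 258 CPM in WT to between 1504 and 1812 in Veh, 429 and 822 under anti-miR-21 and 805 and 915 under ACEi. Of the 6 neutrophil markers 4 were tested and 2 rose, with sums between 0.718 and 4.28 CPM in WT and between 15.2 and 22.2 in Veh. Mast cell markers summed to at most 2.80 CPM in any mouse, with 1 of 6 at 0 in the WT, anti-miR-21 and ACEi groups, and 4 of 6 B and plasma cell markers rose. All 5 proximal tubule markers fell. Among endothelial markers 2 of 4 rose, and among podocyte markers 3 of 4. Of 3 thick ascending limb markers 1 rose and 2 fell, and 2 of 4 collecting duct markers fell. Over all tested genes 39.0% were higher and 34.0% lower in Veh than in WT. The part of cell numbers in the interleukin values was not tested.

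**Figure D5:**
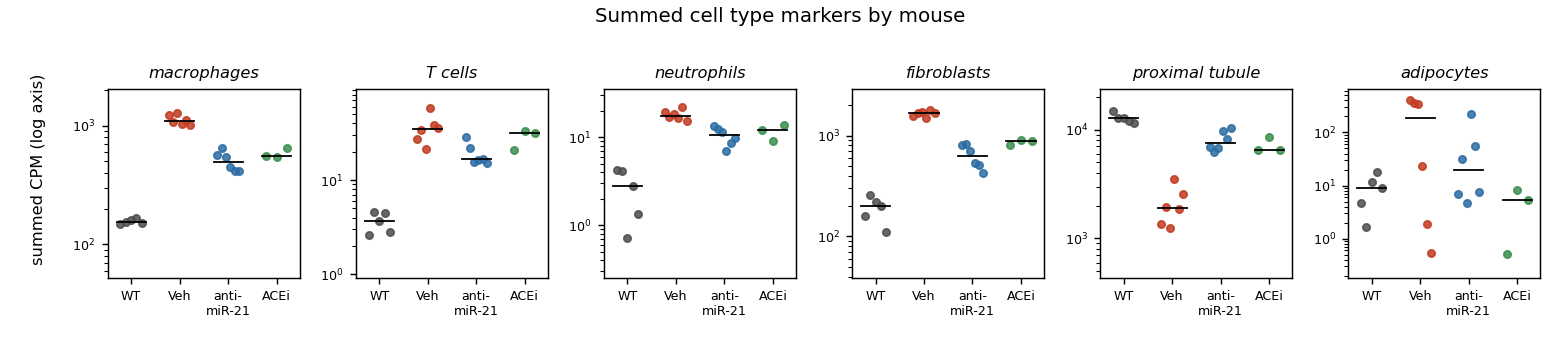
Summed CPM of marker genes are plotted on log axes for 6 cell types, 1 point per mouse with a line at the group median. Macrophage, T cell, neutrophil and fibroblast sums are lowest in WT, proximal tubule sums are lowest in Veh, and 4 libraries stand apart in the adipocyte panel.

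Genes downstream of the receptors were read from lists, and counts below are for Veh against WT unless stated. They are read beside all genes tested, of which 39.0% were higher and 34.0% lower in Veh than in WT, 28.8% higher and 30.5% lower under anti-miR-21 than in Veh, and 21.0% higher and 19.1% lower under ACEi than in Veh. All 7 NF-kB subunits and inhibitors rose, led by Relb at 3.09 (adjusted p = 6.10e-13) and Nfkbiz at 2.97 (adjusted p = 1.98e-11), with a list median of 2.28 on the log2 scale. All 7 were lower than Veh under anti-miR-21 and 5 under ACEi. Of the 7 genes of the inflammasome and of interleukin-1 processing, 6 rose and 1 fell, and the largest values were those of Casp4, 3.82 (adjusted p = 6.15e-13), and Aim2, 3.34 (adjusted p = 5.25e-10). Of these 7, 6 were lower than Veh under anti-miR-21 and 4 under ACEi, with 1 higher under ACEi. The adaptors and kinases of interleukin-1 and Toll receptors split, with 3 of 8 higher and 5 lower. Irak3, an inhibitory kinase, was at 2.64 (adjusted p = 1.0e-09) and Sigirr, an inhibitory receptor of epithelium, at -1.15 (adjusted p = 7.82e-10).

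Of 11 JAK and STAT genes, 9 rose and 1 fell, with Stat4 at 2.75 (adjusted p = 1.52e-06) and Stat3, the factor used by interleukins 6, 11 and 23, at 1.51 (adjusted p = 1.23e-11). Of the 11, 7 were lower than Veh under anti-miR-21 and 2 under ACEi. Among the 4 SOCS feedback inhibitors 2 rose, Socs3 at 4.96 (adjusted p = 2.33e-12) and Socs1 at 1.98 (adjusted p = 4.97e-07). Socs3, which Stat3 induces, was -1.41 from Veh under anti-miR-21 (adjusted p = 2.59e-06) and -1.21 under ACEi (adjusted p = 5.50e-04). The 3 adaptors of the interleukin-17 receptor rose, with Traf2 at 0.81 (adjusted p = 8.73e-10) and Traf3 at 0.62 (adjusted p = 4.62e-08). Of 18 other cytokines and subunits that share receptor chains with interleukins, 16 rose and 1 fell. Csf2, which shares its beta chain with interleukins 3 and 5, had the largest fitted value, 6.53 (adjusted p = 1.65e-05). Its mean was 0 CPM in WT and 0.390 CPM in Veh, so this value depends on the prior count. Of the 18, 15 were lower than Veh under anti-miR-21 and 13 under ACEi.

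The median spread between mice was wider for the tested ligands and receptor chains than for all genes, though only slightly for receptor chains in Veh and ACEi. Genes were not matched for level, and the part of low counts in this difference was not tested. The median SD of log2 CPM over the tested ligands was 0.55 in WT, 0.34 in Veh, 0.38 under anti-miR-21 and 0.25 under ACEi, and over the receptor chains 0.35, 0.21, 0.31 and 0.16, where over all tested genes it was 0.21, 0.20, 0.20 and 0.14. In WT mice, 14 of 37 ligands and 3 of 40 receptor chains were at 0 in every library.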

How the data were processed

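Whole kidney RNA of 20 mice was sequenced as paired-end reads, 1 library per mouse, and mice were grouped by the labels. The authors aligned reads to GRCm38 in OmicSoft Studio and deposited estimated counts per Ensembl gene without normalization between libraries. These expected counts were rounded to whole numbers here. The authors also deposited FPKM on another gene model, which were used for levels and as an alternative. Of the FPKM columns, 3 matched no sample and were not used.

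Genes passing filterByExpr (minimum count 10, total 15) entered edgeR (4.0.16, R 4.3.3) and its quasi-likelihood test, with TMM scaling, 1 coefficient per group over 20 mice and Benjamini-Hochberg adjustment over all 17622 genes. SE came from the F statistic. DESeq2 1.42.0 and limma 3.58.1 (on log2 FPKM) were alternatives. Log2 CPM used a prior count of 2. Intervals cover counting error only.

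Members, gene lists and motifs were chosen with earlier results of these data known. Values by mouse were given for the 8 ligands and 10 receptor chains with the largest called difference between Veh and WT, those called against most of their class, those with under 25% removed by each treatment, and the antagonists. The other alternatives were scaling, filter, pseudocount, flow cell, the groups fitted and each mouse left out. For the pathway lists, the 2 largest changes of each were named, except 1 gene that is not reported here. Leaving out the 4 adipocyte-rich libraries was chosen after seeing the data. Steps were tested on simulated data. Plots used matplotlib 3.10.9.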

Additional observations from a re-analysis of the deposited data

Results flagged for a closer look

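Among the 93 sets of named gene and group with 5 or 6 mice that were examined (31 genes in 3 groups), 4 had a mouse far from the others by Dixon's test on log2 CPM, which chance alone does in about 1 set of 20. Il18bp was 23.1 CPM in Veh mouse A16 and between 6.66 and 8.85 CPM in the other 5 Veh mice. Il1f6 was 3.85 CPM in anti-miR-21 mouse A8, against 2.32 to 2.62 CPM in the other 5. Without A8 its difference from Veh was -0.55 on the log2 scale and called by edgeR (adjusted p = 0.0172). Il5ra was 2.24 CPM in Veh mouse A9, against 3.46 to 4.12 CPM, and its 3 calls that use Veh were kept without A9. Il6 was at 0 CPM in anti-miR-21 mouse A12, 1 of the libraries with high adipocyte markers, against 0.295 to 0.552 CPM, and its difference from Veh was -1.32 without A12 (adjusted p = 0.00761).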

How the results depend on the processing

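No paired analysis was possible because the mouse names are unique and pair no mice between groups. Requiring at least 10 counts in every library left 6 ligands, and the ligands called were then 6 for Veh versus WT, 6 for anti-miR-21 versus Veh, 1 for anti-miR-21 versus ACEi, 3 for anti-miR-21 versus WT and 3 for ACEi versus WT, since fewer genes were tested. For ACEi versus Veh, the ligands called went from 5 to 8 with upper-quartile scaling, 9 with library totals alone, 2 with flow cell as a term, 8 with only the groups compared, 8 with DESeq2, 2 without the 4 adipocyte-rich libraries and 11, 12 and 10 with FPKM + 1, FPKM + 0.1 and FPKM + 1 above a mean of 0.1. The receptor chains called there went from 13 to 21 with library totals alone and to 20, 20 and 21 with those FPKM settings. For anti-miR-21 versus ACEi, 1 ligand was called with flow cell as a term, 1 with DESeq2 and 1 with FPKM + 1 above a mean of 0.1, and 2 receptor chains with DESeq2. Leaving out 1 mouse gave 2 to 6 ligands and 10 to 16 receptor chains for ACEi versus Veh and 0 to 1 of each for anti-miR-21 versus ACEi. Since only 1 ACEi mouse was on the first flow cell, the fit within that flow cell was not run for ACEi. The cause was not tested except where stated. No share of all genes called was at hand for these alternative fits.

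Among the genes called in Veh versus WT, the direction turned for 2. Il15ra was 0.18 with library totals alone and 0.18, 0.20 and 0.18 with the 3 FPKM settings, and Il17ra was 0.12, 0.029, 0.032 and 0.029. For Il15ra, anti-miR-21 versus Veh, the value was -0.044 with totals alone and -0.0455, -0.0497 and -0.0455 with FPKM. Library totals alone moved the median of all genes from 0.07 to 0.65 between Veh and WT. Over the 31 named genes, 3828 alternative values kept the main outcome, called or not called, 98 lost the call, 104 gained it and 12 reversed. Values without a call could change sign and still be counted as kept. Il1f6 did so for ACEi versus Veh, from 0.03 to -0.25 with library totals alone. Between Veh and WT, 13 of 14 ligand calls and 26 of 30 receptor calls held under every alternative that tested the gene. These were 10 of 13 and 19 of 24 for anti-miR-21 versus Veh, and 2 of 5 and 7 of 13 for ACEi versus Veh. Against WT they were 5 of 9 and 18 of 22 for anti-miR-21, and 9 of 10 and 20 of 24 for ACEi.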
